A study of Sus scrofa with 22 samples.

Results

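UCP2 (uncoupling protein 2) was followed in the blood mononuclear cells of mini pigs, over 22 Affymetrix arrays. The gene was found as every probe set annotated to the symbol UCP2 and to no other symbol. That rule gave 1 probe set of the 23999 on the array, or 1 gene of the 6765 that carried a single symbol. After a filter on dim probe sets, 17240 probe sets remained and stood for 5906 genes, UCP2 among them. UCP2 was singled out with its values in these same arrays in view, so its differences and correlations with other genes are given as a description, with standard errors (SE) or standard deviations (SD) and no p-value.

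UCP2 is a carrier of the mitochondrial inner membrane and belongs to the SLC25 family. It was named for its likeness to UCP1, the protein that lets protons back into the matrix of brown fat mitochondria and so releases heat. In cells of the immune system UCP2 is the main uncoupling protein. It has been tied there to the export of 4-carbon metabolites from mitochondria, to the use of fatty acids and glutamine in place of glucose, and to low production of reactive oxygen species. Fatty acids and their PPAR receptors are known inducers of its transcription, and its protein turns over fast.

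The study asked whether a dietary dose of resveratrol, a plant polyphenol, alters gene expression in mononuclear cells of pigs on a fat-rich diet. At time 0, before the diets, 5 females and 5 males labelled as the control group were sampled. After 9 months there were 3 groups of 2 females and 2 males each. The control group ate a normal chow with 5% beef tallow, the high-fat group a chow with 20% beef tallow, and the resveratrol group the 20% chow plus a daily 8 mg of resveratrol for each kg of body weight. All animals were of the breed Mini Pig, and the labels name no genetic change and no age. The 22 arrays came from 20 pigs, because pig 8 (female) and pig 25 (male) of the control group were measured at both times. Each array holds the blood of 1 pig at 1 time, so the spread is that between pigs. Time 0 and 9 months differ in the age of the pigs, in the study chow eaten between them and in whatever else changed between the times. These cannot be told apart.

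The samples carried the markers of their labelled cell type. The 10 measured T cell markers had mean log2 values of 10.14 to 11.06 over the arrays, and the 10 measured monocyte markers 8.79 to 9.67. The 5 granulocyte markers, which should be scarce after the density gradient, had means of 5.11 to 6.68, and the 5 platelet markers 6.26 to 9.78. The 3 erythroid markers (HBB, ALAS2 and AHSP), of cells the gradient should also remove, had means of 8.13 to 10.95. In a mixture of cells like this one, fewer cells of a type and less RNA per cell cannot be told apart.

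UCP2 was well above the filter in every array. All values below are log2 intensities, so a difference of 1 is a doubling of signal. At time 0 the 5 females had UCP2 values of 10.63 (pig 6), 11.25 (pig 8), 11.05 (pig 10), 11.37 (pig 17) and 11.64 (pig 20). The 5 males had 11.12 (pig 11), 11.37 (pig 12), 11.20 (pig 15), 11.10 (pig 24) and 11.12 (pig 25). The males lay close together, and the females spread on both sides of them.

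On the control chow at 9 months the females had UCP2 values of 10.60 (pig 18) and 10.31 (pig 8), and the males 11.54 (pig 16) and 10.33 (pig 25). On the high-fat chow the females had 10.55 (pig 27) and 10.33 (pig 30), and the males 9.70 (pig 23) and 9.98 (pig 26). With resveratrol the females had 10.77 (pig 21) and 11.02 (pig 22), and the males 10.04 (pig 4) and 9.91 (pig 5). One control male, pig 16, stood apart from the other 3 controls and was the second highest array of all 22, after the time 0 female pig 20. The lowest 4 arrays were the males on the high-fat chow, with and without resveratrol.

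The highest mean of UCP2 was that of time 0, at 11.18 ± 0.26 (SD, n = 10). It was 10.69 ± 0.58 for control pigs after 9 months, 10.44 ± 0.54 with resveratrol and 10.14 ± 0.38 on the high-fat chow (SD, n = 4 each). The SD within the 8 groups of diet, time and sex, pooled, was 0.33. Time 0 and the control chow were 0.49 apart, more than that spread. The control and resveratrol groups differed by less than it, and so did the resveratrol and high-fat groups. Values overlapped between the high-fat and control groups, between the resveratrol and high-fat groups, and between 9 months and time 0. Of all probe sets tested, 5.05%, 3.81% and 7.06% had no overlap in these pairs. The 4 high-fat arrays lay below all 10 arrays of time 0, as happened in one direction or the other for 15.6% of all probe sets tested.

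**Figure D1:**
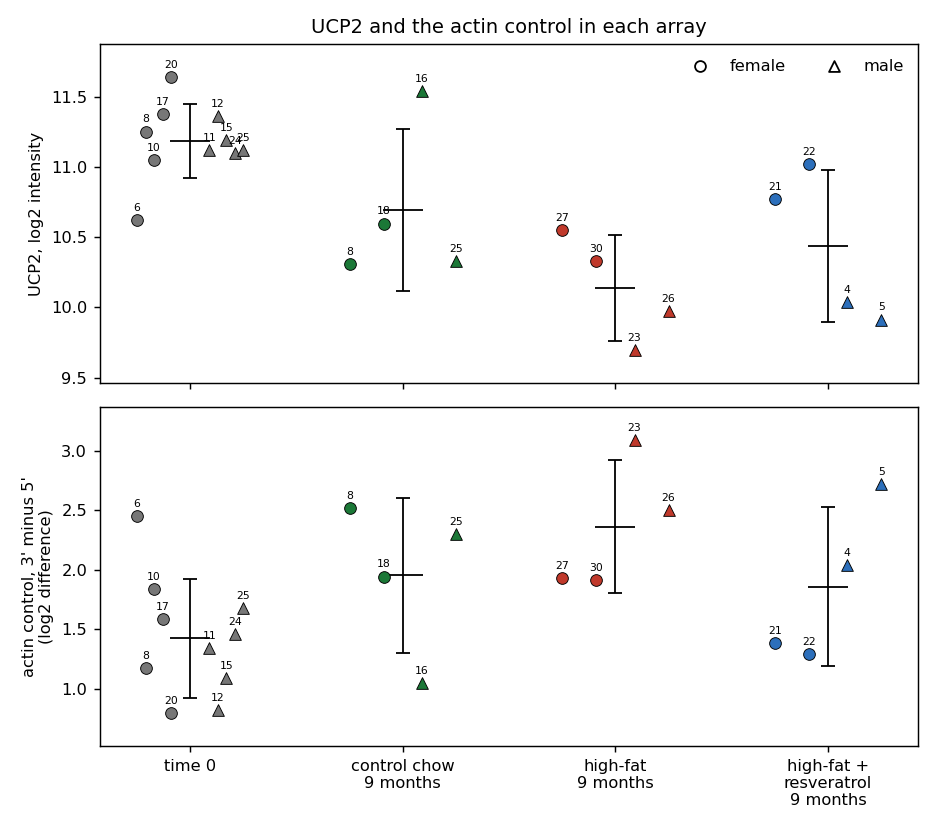
Each point is 1 array, labelled with the pig's number; circles are females and triangles males, and the bar with whiskers is the mean ± SD of a condition (n = 10 at time 0, n = 4 for each diet). The upper panel gives the UCP2 log2 intensity and the lower panel the 3' minus 5' log2 difference of the actin control: arrays high in one panel are low in the other, from the control male 16 (11.54 and 1.05) to the high-fat male 23 (9.70 and 3.09).

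UCP2 moved with a measure used to judge the quality of arrays. Whether this reflects RNA integrity, labelling or biology was not tested. The array carries control probe sets at the 3' end, the middle and the 5' end of the actin and GAPDH transcripts. The 3' minus 5' log2 difference grows when RNA is shorter or the labelled copies do not reach the 5' end. For actin its time 0 mean was 1.42 ± 0.50 (SD, n = 10). The 9-month means were 1.95 ± 0.65 in the controls, 2.36 ± 0.56 in high-fat pigs and 1.86 ± 0.67 with resveratrol (SD, n = 4 each). The order of these means was the reverse of the UCP2 order but for the control and resveratrol groups.

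Within time 0 UCP2 and the actin difference had a Pearson r of -0.87 and a Spearman coefficient of -0.75 (n = 10). Within 9 months r was -0.92 and the Spearman coefficient -0.94 (n = 12). These relations are given as a description as well, since UCP2 was chosen from these arrays and the control was looked at after seeing the data. Without the 2 arrays farthest from the median of the actin difference, r was -0.57 at time 0 and -0.87 at 9 months, so the time 0 relation rests in part on those 2 arrays.

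The relation at 9 months was present in both sexes, with r = -0.88 in the 6 females and r = -0.94 in the 6 males. Arrays could also be parted by the level of the poly-A RNA spiked in before labelling. In the 7 arrays of 9 months with the lower spike-in signal r was -0.94, and in the 8 such arrays of time 0 it was -0.64. The sets with the higher signal had 5 and 2 arrays, too few for a value. UCP2 followed the 5' end of actin most (r = 0.87 at time 0 and 0.91 at 9 months) and its 3' end least (0.45 and 0.75). The GAPDH difference gave r = -0.81 at time 0 (n = 10) and -0.75 at 9 months (n = 12). Its Spearman coefficient was -0.71 and -0.72, and without the 2 farthest arrays its r was -0.38 at time 0 and -0.89 at 9 months.

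Many probe sets moved with the actin difference, and UCP2 was among the closest. At 9 months 1422 of the 17240 probe sets (8.25%) had an r of 0.8 or more in size, 821 of them negative and 601 positive. An r at least as large in size as that of UCP2, UCP2 included, was found for 0.284% of the probe sets over all 22 arrays, 1.79% within time 0 and 0.632% within 9 months.

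UCP2 also varied beside marker lists, all within a time. For the mean of the T cell markers r was 0.34 at time 0 and 0.50 at 9 months, and the Spearman coefficient 0.26 and 0.72. For that of the monocyte markers r was 0.42 and -0.01. The 9-month Spearman coefficient of the T cell mean was of the size of that of the GAPDH difference. Without the 2 farthest arrays, r of the T cell mean was 0.61 at time 0 and 0.38 at 9 months. The erythroid mean had Spearman coefficients of -0.21 and -0.59 at these times, and the granulocyte mean -0.10 and -0.52.

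**Figure D2:**
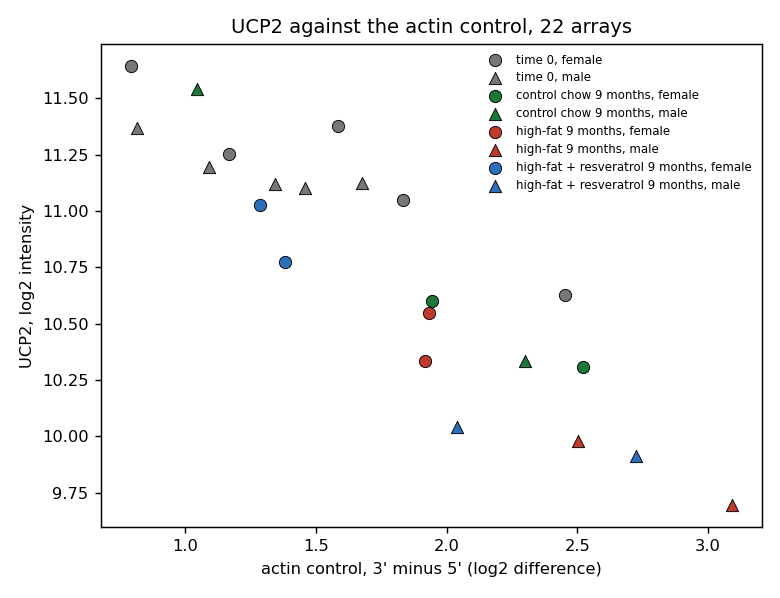
UCP2 log2 intensity (vertical) against the 3' minus 5' log2 difference of the actin control (horizontal), 1 point per array, coloured by condition, with circles for females and triangles for males. The points fall from upper left to lower right within time 0 (r = -0.87, n = 10) and within 9 months (r = -0.92, n = 12).

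For the effect of fat, UCP2 was lower on the high-fat chow than on the control chow by 0.56 on the log2 scale as fitted (-0.56, SE 0.26, n = 4 each), a ratio of 0.68. Of all probe sets tested, 2.27% had a larger difference in size. The value depended on the control male 16: without that array it was -0.22 (SE 0.22). With the actin difference as a term in the fit it was -0.30 (SE 0.12), and with the GAPDH difference -0.27 (SE 0.18). The monocyte marker means narrowly did not overlap between these groups, at 9.25 to 9.67 in the controls and 8.79 to 9.24 on the high-fat chow. Of all single probe sets tested, 5.05% had no overlap in this pair, in either direction. With the monocyte minus T cell marker mean as a term the UCP2 difference was -0.75 (SE 0.29). The spike-in sets gave -1.12 in the lower and -0.05 in the higher set, each with 1 array on one of the sides.

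For the effect of resveratrol on top of fat, UCP2 was higher with resveratrol by 0.30 (SE 0.26, n = 4 each), a ratio of 1.23, and 8.93% of the probe sets had a larger difference. Both groups spanned more than this difference, from 9.70 to 10.55 and from 9.91 to 11.02. With the actin difference in the fit the value was -0.02 (SE 0.12), with the GAPDH difference 0.06 (SE 0.17). Against the control chow the resveratrol group was at -0.26 (SE 0.26). Leaving out the control male 16 turned that value to 0.08 (SE 0.22). Within the lower spike-in set, which holds pig 16, it was -0.49, and within the higher one, with 1 array a side, 0.44. These 3 diet differences share arrays, the high-fat group standing in the first 2 and the control group in the first and the last.

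For time, control pigs at 9 months were at -0.49 (SE 0.22) relative to time 0, a ratio of 0.71, and 17.6% of probe sets had a larger difference. Both pigs measured at both times were lower at 9 months. Pig 8 went from 11.25 to 10.31, a change of -0.95, while its actin difference went from 1.17 to 2.52. Pig 25 went from 11.12 to 10.33, a change of -0.79, with an actin difference of 1.68 and then 2.30. With the actin difference as a term the time value was -0.15 (SE 0.10), with the GAPDH difference -0.55 (SE 0.14), and without the control male 16 it was -0.83 (SE 0.19). Marker lists differed with time too. T cell means were 10.69 to 11.06 at time 0 and 10.31 to 10.50 in the controls at 9 months. Over the same arrays erythroid means were 9.26 to 10.95 and 8.13 to 9.64, the B cell marker CD79B 9.86 to 10.62 and 9.04 to 10.04, NK means 10.38 to 10.87 and 9.96 to 10.50, and monocyte means 8.87 to 9.58 and 9.25 to 9.67. The part of each in the UCP2 value was not tested alone. With the monocyte minus T cell mean as a term it was -0.23 (SE 0.28).

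Females and males had UCP2 means of 11.19 and 11.18 before the diets, with a female minus male difference of 0.01 (SE 0.19, n = 5 each). In the alternative fits with all arrays kept or time 0 alone, this difference ran from -0.06 to 0.27. At 9 months the difference over the 3 diets was 0.35 (SE 0.17, n = 6 each), a ratio of 1.27, and 10.2% of probe sets had a larger one. By diet, females and males averaged 10.45 and 10.94 on the control chow, where pig 16 set the male mean, 10.44 and 9.84 on the high-fat chow, and 10.90 and 9.98 with resveratrol (n = 2 for each mean). Whether the sex difference itself differs between diets was not tested. On the 2 high-fat chows together the 4 females (10.33 to 11.02) lay above the 4 males (9.70 to 10.04). Such a separation of the sexes in these 8 arrays was seen in 19.3% of all probe sets. The same 4 females had actin differences of 1.29 to 1.93 and the 4 males 2.04 to 3.09, which also do not overlap. With the actin difference in the fit the 9-month sex difference in UCP2 was 0.08 (SE 0.10), and with the GAPDH difference 0.37 (SE 0.11).

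**Figure D3:**
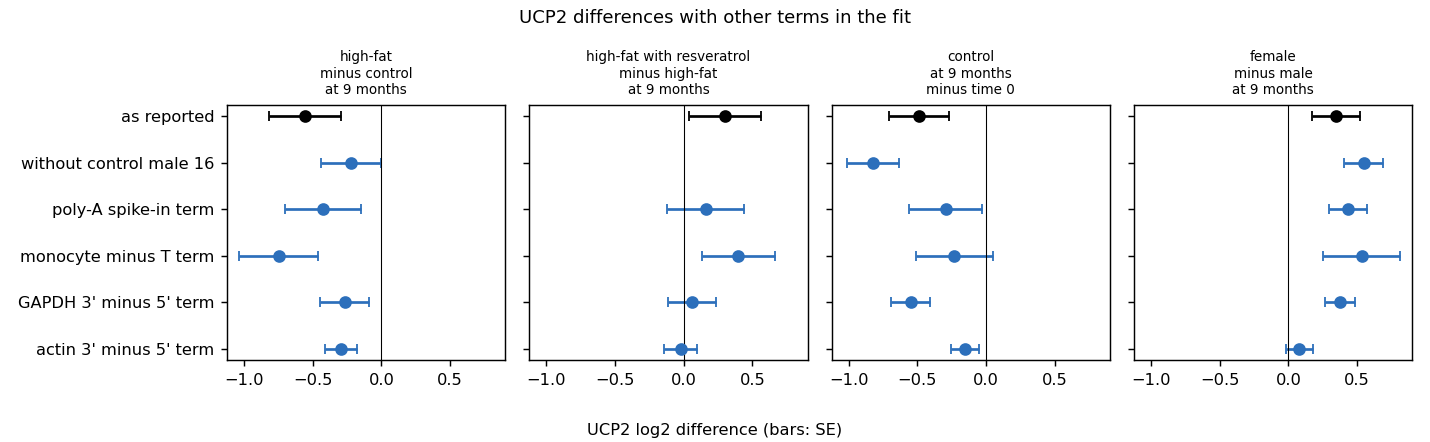
UCP2 log2 differences (points) with their SE (bars) for 4 comparisons, as fitted in black and in blue without the control male 16 or with 1 more term in the fit. The resveratrol minus high-fat panel has no value without pig 16, which is in neither group. With the actin term the resveratrol difference lies at -0.02 and the 9-month sex difference at 0.08.

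The genes closest to UCP2 were ranked by Pearson r of the log2 values over the 22 arrays, with 1 probe set for each of the other 5905 genes. Beside the actin relation above, these arrays also share time, diet and sex, so r measures likeness of pattern and nothing else. The highest was RHOG (r = 0.97), a small GTPase that leukocytes use in membrane ruffling and uptake. ARHGDIA followed with 0.97. It encodes an inhibitor that keeps small GTPases in the cytosol. CFL1 (0.96), cofilin, cuts actin filaments, and WDR1 (0.95) works with cofilin to take them apart.

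The rest of the 10 highest had other known roles. TRPC4AP (0.96) is an adaptor of a ubiquitin ligase, and MRPL38 (0.96) a protein of the mitochondrial ribosome. BSG (0.95), basigin, brings lactate transporters to the cell surface, and PRKCSH (0.95) is a subunit of glucosidase II in the endoplasmic reticulum. IDH3G (0.94) is a subunit of the mitochondrial isocitrate dehydrogenase of the citric acid cycle. BLOC1S1 (0.94) belongs to complexes that shape and position lysosomes. Just outside the 10 was TOLLIP, an adaptor of Toll-like receptor signalling, at 0.93.

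RHOG showed the pattern in single arrays. At time 0 its log2 value ran from 9.34 in pig 6 to 10.49 in pig 20, the same 2 pigs that were lowest and highest for UCP2 at that time. At 9 months RHOG was 10.60 in the control male 16, and 8.90 to 9.00 in the 4 males of the high-fat chows. CFL1, a bright transcript, moved over a narrower range, from 11.94 in the high-fat male 23 to 12.64 in the time 0 female 20. These are again the lowest and highest arrays for UCP2.

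The 5 genes with the lowest r ran against UCP2 over the arrays. ARID2 (-0.91) is a subunit of the PBAF chromatin remodelling complex, and MED10 (-0.88) a subunit of Mediator. WAC (-0.88) is an adaptor for histone ubiquitination. PPTC7 (-0.89) is a phosphatase of mitochondria, and INPP5F (-0.87) one that acts on phosphoinositides. KDM2A, a histone demethylase just outside the 5, was at -0.87. ARID2 was lowest in the control male 16, at 7.13, and highest in the high-fat male 23, at 8.36.

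**Figure D4:**
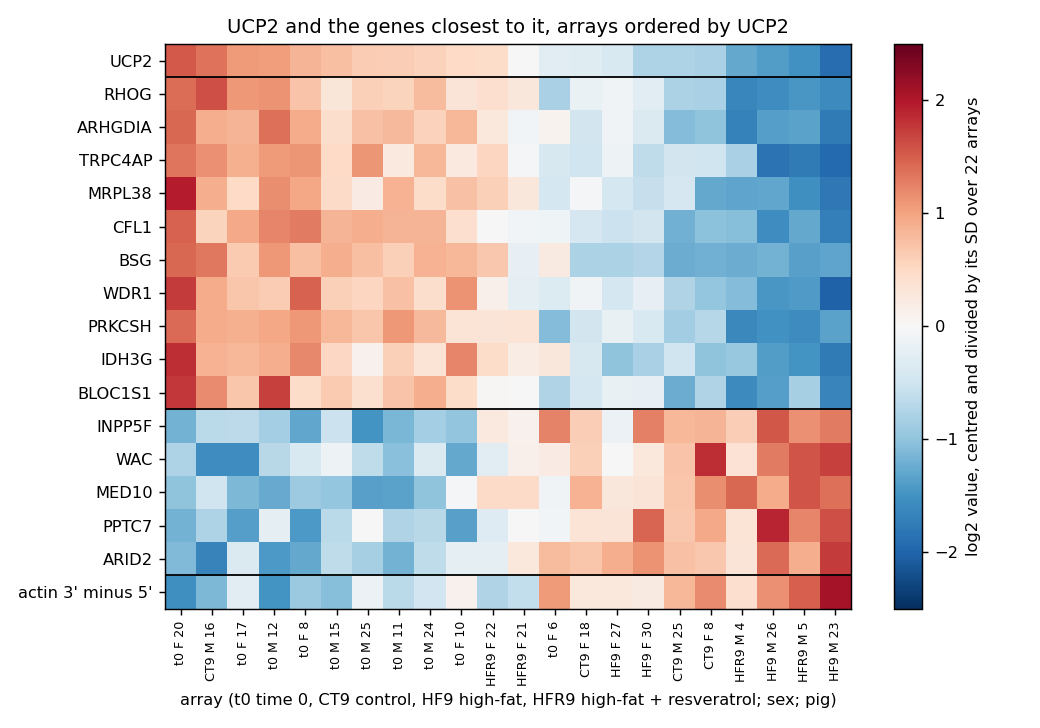
Log2 values of UCP2, of the 10 genes with the highest r and the 5 with the lowest, and the 3' minus 5' actin difference, each centred and divided by its SD over the 22 arrays (colour scale). Columns are arrays in falling order of UCP2 from left to right: the 10 highest fade from red to blue with UCP2 (r of 0.94 to 0.97), and the 5 lowest and the actin difference run the other way.

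Many genes shared the pattern. Of the 5905 genes, 233 (3.95%) had an r of 0.8 or more with UCP2 and 28 had -0.8 or less, while the median gene was at 0.09. The 10 highest kept a median r of 0.87 in the time 0 arrays alone and of 0.95 in those of 9 months, although only 2 of them were among the 10 highest in each. After the 8 group means were removed, the median was 0.89 and 3 of the 10 stayed in the top 10. The 5 highest by that measure were TOLLIP (0.96), RHOG (0.95), CFL1 (0.94), CD74 (0.94), the invariant chain of MHC class II, and C2H11orf68 (0.93). NUCB1, a Golgi protein, followed at 0.93. CD74 had a lower r of 0.79 over all 22 arrays.

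All 10 of the closest genes also moved with the actin difference, with r between -0.84 and -0.92. Once a linear relation with the actin difference was removed from every gene, 11 genes had an r of 0.8 or more with UCP2 and 3 had -0.8 or less. The 10 had a median of 0.79 then, and ARHGDIA (0.87) and RHOG (0.83) were still among the first 5. Other genes joined them, chosen on this measure alone: GYS1 (0.85), the glycogen synthase of muscle and most other cells, RPS6KA1 (0.85), a kinase downstream of ERK, and RIPOR1 (0.84). CD74 and C2H11orf68 dropped to 0.21 and 0.18.

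Genes of UCP2's own pathways were taken from 8 lists with 212 symbols, of which 135 were measured above the filter. UCP3, the uncoupling protein of muscle, shares chromosome 9 with UCP2 in the pig assembly Sscrofa11.1. Its 2 probe sets were dim, with log2 values of 5.00 to 5.78 and 5.81 to 6.30 over the 22 arrays. The brighter one had an r with UCP2 of 0.14 and differed by -0.16 (SE 0.10) between high-fat and control chow. No probe set was annotated to UCP1. The PPAR receptors PPARA and PPARG and the PPAR target PDK4, a kinase that shuts off pyruvate dehydrogenase, stayed below the filter in all 22 arrays, at no more than 4.61, 4.58 and 3.28. PPARD, the third PPAR, had the highest r over the 22 arrays of the 11 measured regulators of fatty acid response (0.77), but r was -0.42 within time 0, 0.75 within 9 months and 0.13 after the group means were removed. USF2, a transcription factor of the same list, had r = 0.08 over the 22 arrays and 0.82 within time 0, 0.91 within 9 months and 0.88 after the group means were removed.

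Some carriers and enzymes next to UCP2 in metabolism shared its pattern. Among 21 other mitochondrial carriers the median r with UCP2 was 0.14, and 3 reached 0.8, as did 3.95% of all 5905 genes. The 3 carriers were SLC25A1 (0.87), which exports citrate, SLC25A11 (0.85), which exchanges oxoglutarate for malate, and SLC25A39 (0.81), a carrier of glutathione. Of 16 genes of glutamine and 4-carbon metabolism the median was 0.49. OGDH (0.88), of the oxoglutarate dehydrogenase complex, and ME3 (0.87), a mitochondrial malic enzyme, passed 0.8. Of 25 respiratory chain and ATP synthase genes the median was 0.27, and NDUFV1 (0.88), ATP5D (0.85) and SDHA (0.81) passed 0.8. PHB2 (0.93), a scaffold protein of the inner membrane, was the highest of all listed genes. RAC2 (0.90), the GTPase of the phagocyte NADPH oxidase, came next. The 18 genes of defence against mitochondrial oxidants had a median of -0.03, with none at 0.8. The genes named here with an r of 0.8 or more also moved with the actin difference. RAC2 was at r = -0.89, ME3 at -0.85 and PHB2 at -0.84, and the weakest was SDHA at -0.63. Once the actin difference was removed, their r with UCP2 ran from 0.46 (ME3) to 0.74 (PHB2). Within time 0 alone it ran from -0.04 (SDHA) to 0.86 (RAC2).

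None of the 135 listed genes passed the test between high-fat and control chow, with limma and Benjamini-Hochberg adjustment over all 17240 probe sets at a threshold of 0.05. No other probe set did (0%). At an unadjusted p under 0.05 there were 17 of the 135 (12.6%), against 1562 of all probe sets (9.06%). The smallest p belonged to CPT1A, which brings long-chain fatty acids into mitochondria (1.19, SE 0.21, limma adjusted p = 0.0996). Its values were 7.93 to 8.28 in the 4 controls and 8.98 to 9.61 in the 4 high-fat pigs, without overlap, as for 5.05% of all probe sets in either direction. SLC25A20, the carrier that moves the resulting acylcarnitines across the inner membrane, differed by 0.66 (SE 0.15, limma adjusted p = 0.218). Both are known targets of PPARs, as UCP2 is, but their r with it over the 22 arrays was -0.04 and -0.10. Within the times SLC25A20 ran against UCP2, with r = -0.78 at time 0 and -0.74 at 9 months, and CPT1A was at -0.17 and -0.38. Of the 30 genes of this list, ACADVL (0.85) and ACADS (0.83), dehydrogenases of beta-oxidation, reached 0.8 over the 22 arrays, as did 3.95% of all genes. Both also moved with the actin difference, at r = -0.77 and -0.81. With the actin difference as a term none of the 135 passed and 0.0116% of all probe sets did. With array weights CPT1A, SLC25A20 and NCF4 passed, and 0.394% of all probe sets. With 8 group means CPT1A and FABP4 passed, and 0.104% of all probe sets. With the arrays of 9 months alone CPT1A passed (0.0058% of all), and without the control female 8 also CPT1A (0.104%). FABP4 was above the filter in the high-fat females alone, so its pass supports nothing.

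As fitted, no gene of the other lists passed. All 4 measured genes of the NADPH oxidase, which makes superoxide in phagocytes, had negative values, as did 51.2% of all probe sets, with a median of -0.36 against 0.00. With the actin term RAC2 was at 0.08 and the other 3 stayed negative. NCF4 was at -0.68 (limma adjusted p = 0.258), with values of 8.85 to 9.28 in the high-fat pigs and 9.57 to 10.04 in the controls, and CYBA at -0.33 (adjusted p = 0.379). The monocyte marker means were lower in the same pigs, as given above, and their part in these values was not tested. Among the regulators USF2 was at -0.66 (adjusted p = 0.406) and RXRB at -0.31 (adjusted p = 0.471). PPARD was at -0.11 (SE 0.15).

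Of the mitochondrial carriers 17 of 21 had negative values (median -0.08), as did 51.2% of all probe sets, SLC25A5 with -0.18 (limma adjusted p = 0.589) having the smallest p after SLC25A20. PCK2 (-0.47) and OGDH (-0.23) had the smallest p of glutamine and 4-carbon metabolism, SDHA (-0.21) and COX7C (0.29) of the respiratory chain, HSPD1 (0.20) and VDAC2 (-0.22) of the markers of mitochondrial mass, and GPX1 (-0.22) and PRDX3 (0.14) of oxidant defence. Their limma adjusted p-values ran from 0.38 to 0.609. Most of these differences were under 0.3 in size, below that of UCP2.

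**Figure D5:**
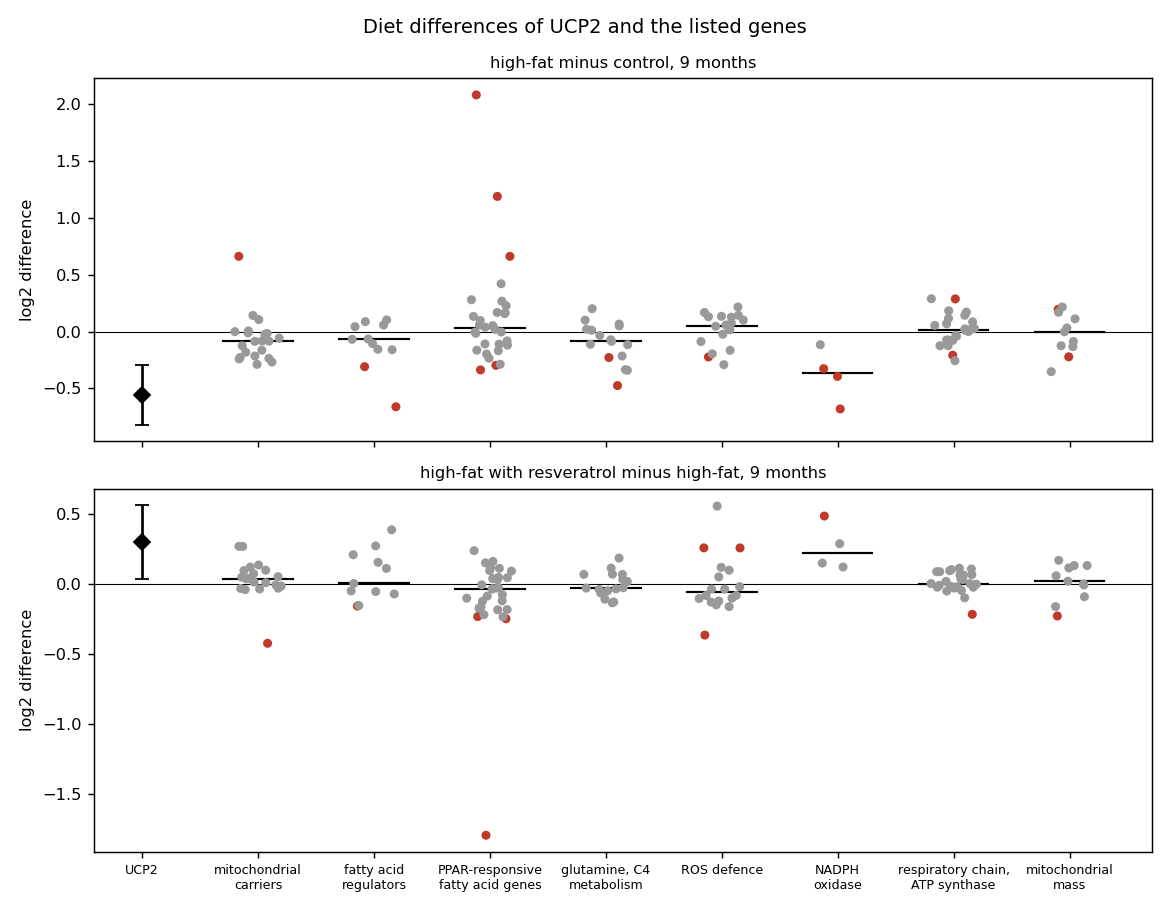
Log2 differences between diets at 9 months for UCP2 (diamond, with SE) and for the measured genes of 8 lists (1 point per gene; red where the unadjusted limma p was under 0.05; black lines are list medians). No gene passed the adjusted threshold in either panel; FABP4 (2.08 and -1.80), CPT1A (1.19) and SLC25A20 (0.66) lie farthest from 0 in the fatty acid list.

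With resveratrol against high-fat chow none of the 135 passed either, with limma, and no other probe set did (0%). Unadjusted, 11 of the 135 (8.15%) and 1143 of all probe sets (6.63%) had a p under 0.05. All 4 NADPH oxidase genes had positive values, as did 54.2% of all probe sets (median 0.22, against 0.02), and with the actin term RAC2 was at -0.12 and the other 3 stayed positive. The values as fitted put NCF4 at 0.49 and NCF1 at 0.29 (limma adjusted p = 0.728 and 0.816). CPT1A was at -0.12 (SE 0.21) and SLC25A20 at -0.04 (SE 0.15), so the values of both stayed near those of the high-fat group. FABP4, a fatty acid binding protein of fat cells and macrophages, was at -1.80 (limma adjusted p = 0.728). It was high in only 2 arrays, the high-fat females 27 (7.92) and 30 (7.35), and between 2.95 and 3.72 in the other 20 arrays. It passed the filter through those 2 arrays alone, so its tests support nothing. Without it 10 of 134 listed genes (7.46%) had an unadjusted p under 0.05 here, and 16 of 134 (11.9%) between high-fat and control chow.

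For the rest of the lists the genes of smallest p follow. NNT (-0.37) and GPX1 (0.26) had the smallest p of oxidant defence, SLC25A24 (-0.42) and SLC25A33 (0.27) of the carriers, and CAT (-0.25) came after FABP4 in the fatty acid list. HSPD1 (-0.23) and LONP1 (0.17), ATP5B (-0.22) and NDUFV1 (0.11), HNRNPK (-0.16) and HNF4A (0.27), and MDH1 (-0.13) and OGDH (0.11) were the others, with limma adjusted p-values of 0.728 to 0.889. PPARD was at -0.05 (SE 0.15) and UCP3 at -0.01 (SE 0.10). Against the control chow the resveratrol group had 0 of 135 and 0 of all probe sets (0%) past the limma threshold, with 8 (5.93%) and 664 (3.85%) at an unadjusted p under 0.05. CPT1A was at 1.06 and SLC25A20 at 0.63 there (limma adjusted p = 1.00 for both).

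Between time 0 and 9 months on control chow many listed genes changed, most of them downward. With limma 58 of the 135 passed (43%, against 35.0% of all probe sets). The 47 that fell were 34.8% of the listed genes, against 19.1% of all probe sets, and the 11 that rose were 8.15%, against 15.8%. At an unadjusted p under 0.05 there were 64 (47.4%, against 44.5%). Of the 58, 52 also passed with the actin difference as a term, a fit in which 56 of the 135 and 40.5% of all probe sets passed. The T cell, erythroid, B cell, NK and monocyte marker values given above ran beside all of these. With the monocyte minus T cell mean as a term 30.4% of all probe sets passed. The part of each marker list alone was not tested.

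Of all probe sets, 19.1% passed as lower and 15.8% as higher in this comparison of times. Respiratory chain and ATP synthase genes gave 13 lower and 0 higher of 25, with a median of -0.27 against -0.01 for all probe sets. SDHC (-0.52, SE 0.08), ATP5B (-0.43, SE 0.07), ATPIF1 (-0.90, SE 0.17), NDUFV2 (-0.58, SE 0.11) and COX5B (-0.42, SE 0.08) had the smallest p. They encode parts of complex II, of the ATP synthase and its inhibitor, of complex I and of complex IV. Fatty acid genes gave 13 lower and 2 higher of 30. Among them ACADM (-0.58) and ACSL5 (-0.49) fell, enzymes of beta-oxidation and of fatty acid activation. FABP3 (-1.02), CPT1A (-1.04) and SLC25A20 (-0.82) fell further.

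In glutamine and 4-carbon metabolism 7 fell and 1 rose of 16, against 19.1% and 15.8% of all probe sets. SLC38A1, a glutamine transporter of the cell surface, rose by 2.07 (SE 0.19), the largest change of all listed genes. GOT1 (-0.67), CS (-0.46), MDH2 (-0.45) and ME2 (-0.43), enzymes of aspartate, citrate and malate, fell. Of the carriers SLC25A36 (1.15) and SLC25A33 (1.06) rose, both carriers of pyrimidine nucleotides, and SLC25A12 (-0.63), SLC25A20 and SLC25A39 (-0.55) fell.

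In oxidant defence 2 of 18 rose and 7 fell, against 15.8% and 19.1% of all probe sets. TXNRD1, thioredoxin reductase, rose by 1.17 (SE 0.10), while NNT (-0.57), PRDX5 (-0.56), TXN2 (-0.34) and PRDX3 (-0.27) fell. Of the NADPH oxidase genes RAC2 fell (-0.64, SE 0.17). Of the regulators USF2 rose (0.96) and PPARD fell (-0.34). With the actin term PPARD was at -0.24 (limma adjusted p = 0.113) and SLC25A39 at -0.38 (limma adjusted p = 0.0592), both among the 6 calls lost there. VDAC3 (-0.59), PHB2 (-0.41) and HSPD1 (-0.23) fell and TFAM (0.58) rose among markers of mitochondrial mass. The limma adjusted p-values of all genes named for this comparison were between 5.10e-08 and 0.0398. Of these genes PHB2, RAC2 and SLC25A39 were among those with an r of 0.8 or more with UCP2.

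Between the sexes at time 0, 2 of the 135 passed with limma (1.48%, against 1.07% of all probe sets), both lower in females, as were 0.574% of all probe sets. CPT1A was at -1.16 (SE 0.10, limma adjusted p = 1.71e-06), with values of 8.34 to 8.77 in the 5 females and 9.62 to 10.01 in the 5 males. SLC25A36 was at -0.57 (SE 0.09, limma adjusted p = 0.0046). UCP2 was at 0.01 (SE 0.19) in the same arrays. Without the time 0 female 20 there were 6 listed genes past the threshold, and 2.29% of all probe sets.

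At 9 months 16 of the 135 passed between the sexes (11.9%, against 6.01% of all probe sets), 6 higher and 10 lower in females (4.44% and 7.41%, against 3.07% and 2.94%). Among the higher ones were SLC25A1 (0.40), PPARD (0.32), USF2 (0.56), SLC25A4 (0.32), an ADP/ATP carrier, and FABP4 (1.43), which was above the filter only in the 2 high-fat females named above and so had to differ. Without FABP4 15 of 134 passed (11.2%), 5 higher and 10 lower. Lower in females were ATP5J (-0.47), ATPIF1 (-0.55) and SDHB (-0.23) of the respiratory chain and ATP synthase, and MTCH2 (-0.45), an outer membrane protein of the carrier family. ACSL4 (-0.43), HADHB (-0.25), TXNIP (-0.61), CAT (-0.32), IDH1 (-0.54) and GSR (-0.30) were lower too. The limma adjusted p-values of these genes were between 5.89e-08 and 0.0488.

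This count changed with other terms and with single arrays, and the count of all probe sets changed with it. With the monocyte minus T cell mean as a term FABP4 alone passed, and 0.0928% of all probe sets. With the actin difference 8 passed (3.49% of all probe sets did). PPARD did not, at 0.31 (limma adjusted p = 0.0997), close to its value without the term, nor did SLC25A1, at 0.28 (limma adjusted p = 0.132). Leaving out the control female 8, the high-fat female 27 or the high-fat male 23 left 5 listed genes, with 2.39%, 2.69% and 1.85% of all probe sets. Without the resveratrol female 21 there were 6 (2.47%), and without the control male 25 or the resveratrol female 22 there were 9 (2.98% and 3.24%).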

How the data were processed

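Blood mononuclear cells of mini pigs were profiled on Affymetrix porcine arrays, 22 arrays in all. GCOS, RMA and Affymetrix Expression Console 1.1 are named in the submitters' processing notes, with no roles given. The deposited values are linear intensities after RMA. They were floored at 1 and turned to log2 here, and 124 control probe sets were set aside. Probe sets with a log2 value over 5 in 2 or more arrays were kept. Symbols came from the platform's annotation (10069 probe sets with 1 symbol, 198 with several, 13732 with none). The number of arrays limits the precision.

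Differences came from limma 3.58.1 (R 4.3.3) on all 22 arrays, with diet and time as 4 levels plus sex, or with 8 group means for the sex comparisons. P-values were two-sided, adjusted by Benjamini-Hochberg over 17240 probe sets with a threshold of 0.05. The script was tested on simulated data. Correlations of UCP2 are given with no p-value. Pigs 8 and 25 were measured at both times by the labels' pig numbers. Their arrays entered the limma fits as independent, with the pig as a random block only as an alternative.

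The gene, the lists and the rules were chosen with earlier results of these data known. Named are the 10 genes with the highest and 5 with the lowest r with UCP2, the 5 highest after removal of group means, up to 5 listed genes past the threshold per list, and in the high-fat and resveratrol comparisons the 2 listed genes of smallest p per list. UCP1, UCP3, CPT1A, SLC25A20, PPARA, PPARD, PPARG and PDK4 are always given. Alternatives were a stricter or no filter, a pseudocount of 16, quantile normalization, array weights, other designs, spike-in and marker terms, the pig as a block, and each array left out. The actin and GAPDH terms were added after seeing the data.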

Additional observations from a re-analysis of the deposited data

Results flagged for a closer look

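Among 36 groups of arrays checked for a sample far from the rest, 2 held one, and chance alone gives about 1 in 20. CPT1A in the time 0 males was highest in pig 11, at 10.01, against 9.62 to 9.72 in the other 4. The GAPDH 3' minus 5' difference on the control chow at 9 months was lowest in pig 16, at 0.229, against 0.548 to 0.569 in the other 3. Pig 16 was also the control with the highest UCP2.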

How the results depend on the processing

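UCP2 kept its direction between high-fat and control chow in all settings run, from -1.12 in the lower to -0.046 in the higher spike-in set, and from -0.73 to -0.22 with each array left out. For resveratrol against high-fat it ranged from -0.02 (actin term) to 0.63 (lower spike-in set), and from 0.13 to 0.45 with arrays left out. For resveratrol against control it was -0.49 in the lower spike-in set, 0.44 in the higher one and 0.05 with array weights. It ran from -0.43 to 0.078 with arrays left out. For time it was -0.15 with the actin term and ran from -0.83 to -0.32. The sex difference ran from -0.11 to 0.15 at time 0 and from 0.15 to 0.55 at 9 months with arrays left out. In the other alternatives it ran from -0.06 to 0.27 at time 0 and from 0.08 to 0.53 at 9 months. The cause of these shifts was not tested.

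Calls depended on the fit. Between high-fat and control chow 18 probe sets passed with 8 group means (2 listed genes), 68 with array weights (3 listed genes), 2 with the actin term and 1 with 9-month arrays alone (1 listed gene). Arrays left out gave 0 to 18, with 0 to 1 listed genes. With 8 group means 1 probe set passed between resveratrol and high-fat (1 listed gene, FABP4) and 1 between resveratrol and control (1 listed gene, CPT1A). The monocyte minus T cell term gave 1 in the former, and the 9-month arrays alone 1 in the latter, again CPT1A (1 listed gene). For the sexes at time 0, against 184 probe sets as reported, 43 passed with time 0 arrays alone, 56 with the spike-in term, 85 with the GAPDH term and 38 to 395 with arrays left out. Listed genes there were 4 with the stricter filter or the pseudocount, and 2 to 6 with arrays left out. With no array left out singly, no alternative fit called more than 224 probe sets. The share of all probe sets under the stricter filter or the pseudocount is not given, so the rise in listed genes cannot be set against it. At 9 months, against 1036, 16 passed with the monocyte minus T cell term (1 listed gene) and 602 with the actin term (8 listed genes). Arrays left out gave 319 to 1441, with 5 to 20 listed genes. For time, they gave 4867 to 6087, with 46 to 57.

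The 10 closest genes had a median r of 0.79 after the actin difference was removed. The 5 opposite ones had -0.59 at time 0 alone, -0.74 after group means were removed and -0.64 after the actin difference was. With the pig as a random block for the pairing of pigs 8 and 25, UCP2 was at -0.55 for high-fat minus control and -0.48 for time, 5828 probe sets passed for time, and no count moved by more than 1.5 times. UCP2 has 1 probe set, so no other could be tried. P-values measure the spread between pigs, with 4 per diet.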
